A study of Mus musculus with 6 samples.

Results

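Kidney RNA-sequencing was used to compare 10 carriers of amino acids and small peptides of the renal proximal tubule between cisplatin-treated WT and Trpm2-/- mice. The carriers were Slc6a18, Slc6a19, Slc6a20b, Slc7a7, Slc7a8, Slc7a9, Slc7a13, Slc3a1, Slc1a1 and Slc15a2. They were found by gene symbol, and all 10 were among the 54532 genes of the deposited tables and among the 15816 genes that passed the filter on low counts. The samples were 3 kidneys of C57BL/6J WT mice and 3 kidneys of TRPM2-KO mice labelled with the same strain, numbered 1, 2 and 4. Mice of both genotypes had received cisplatin at 18 mg/kg for 72 h and were labelled as 6 to 8 weeks old, although the methods of the study give an older range. There was no group without cisplatin, so a difference between genotypes was measured only in injured kidneys. According to the methods, the Trpm2-/- animals lack part of the exons and make a channel protein without function, so the count of the whole Trpm2 gene does not check the genotype. The labels number the kidneys without saying that each came from another animal, but a figure legend of the study gives n = 3 for the mice sequenced. The p-values measure the spread between these samples, taken as separate mice.

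The proximal tubule takes back nearly all amino acids that the glomerulus filters. Carriers of the brush border, most of them driven by sodium or by exchange, bring amino acids and small peptides into the cell, and carriers of the basolateral membrane pass them on to the blood. Several of them reach the membrane only with a partner protein, and inherited loss of such carriers causes aminoacidurias such as cystinuria, Hartnup disorder and lysinuric protein intolerance.

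Of the 10 carriers, 5 were lower in Trpm2-/- kidneys at an adjusted p under 0.05 and 0 were higher, in the quasi-likelihood test of edgeR adjusted by Benjamini-Hochberg. These were Slc6a20b, Slc7a13, Slc3a1, Slc1a1 and Slc7a7, of which Slc7a13 and Slc7a7 were not called without WT kidney 2, without WT kidney 3 or without Trpm2-/- kidney 2, leaving 3. Among all 15816 genes tested, 7.28% were lower and 4.74% were higher by the same rule. At an unadjusted p under 0.05, 6 carriers were lower and 0 were higher, against 14.3% and 14.0% of all genes. DESeq2 called 6 lower and 0 higher, against 8.93% and 6.30% of its genes, and limma on log2(FPKM + 1) called 5 lower and 0 higher, against 6.56% and 3.05%. At the limits used in the study, a log2 fold change under -1 and an unadjusted p under 0.05, 3 of the 10 were lower (Slc6a20b, Slc7a13 and Slc3a1), against 4.10% of all genes. The log2 fold change was below 0 for 9 of the 10, against 48.4% of all genes, and its median was -0.69, against 0.02 over all genes. All Trpm2-/- kidneys lay below all WT kidneys for 6 of the 10, the 5 above and Slc7a9, against 16.8% of all genes. In whole kidney RNA, fewer cells of a type and less RNA per cell cannot be told apart.

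The carrier with the highest level was not among those called. Slc6a18, a carrier of glycine and neutral amino acids, made up 61% to 78% of the summed CPM (counts scaled to the library total) of the 10 carriers, and its groups overlapped. Without Slc6a18, the summed CPM was 819, 951 and 876 in WT kidneys and 738, 550 and 543 in Trpm2-/- kidneys. With Slc6a18, the sum was 2590, 2567 and 2787 in WT kidneys and 1877, 2555 and 1826 in Trpm2-/- kidneys. The Trpm2-/- kidneys were thus all lower on both sums, although kidney 2 came close to the lowest WT kidney when Slc6a18 was counted.

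**Figure D1:**
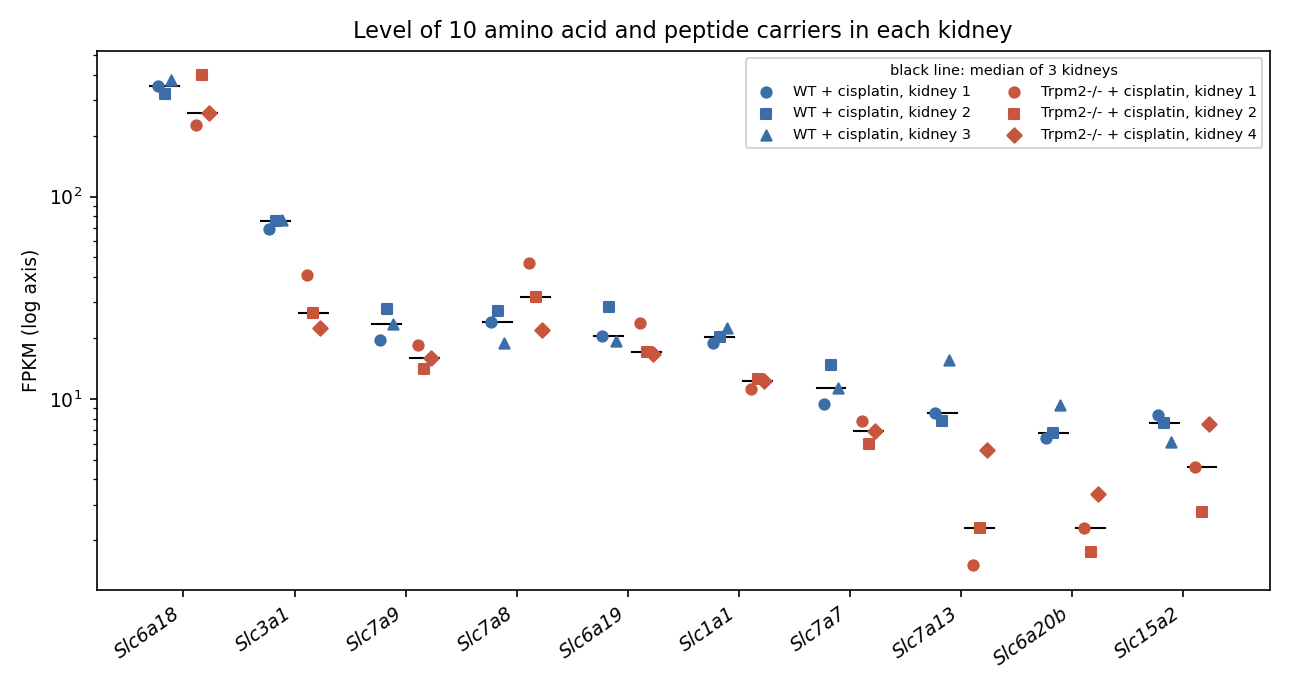
Level of each of the 10 carriers in FPKM (log axis) in the 3 WT kidneys (blue) and the 3 Trpm2-/- kidneys (red), with 1 point per kidney and a black line at the median of each genotype. The blue and red points are apart for Slc3a1, Slc7a9, Slc1a1, Slc7a7, Slc7a13 and Slc6a20b, and they overlap for Slc6a18, Slc7a8, Slc6a19 and Slc15a2.

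Levels were compared between carriers in FPKM, which divides counts by gene length. In WT kidneys Slc6a18 stood first at 350 ± 28.5 FPKM (SD, n = 3), followed by Slc3a1 at 73.7 ± 3.69, and neither overlapped its neighbour in the order. Slc7a9, Slc7a8, Slc6a19 and Slc1a1 followed between 20.6 and 23.6 FPKM with overlapping ranges, so their order was not resolved. Slc7a7, Slc7a13, Slc6a20b and Slc15a2 closed the order between 7.35 and 11.9 FPKM, each overlapping the next. In Trpm2-/- kidneys Slc6a18 was again first, at 294 ± 91.0 FPKM (SD, n = 3). Slc7a8 had the next level, at 33.7 ± 12.6 FPKM, with a range that overlapped that of Slc3a1 at 30.0 ± 9.70. Slc6a20b had the lowest mean level there, 2.47 ± 0.84 FPKM, and overlapped Slc7a13 at 3.13 ± 2.16. In each WT kidney Slc3a1 ranked directly after Slc6a18, whereas Slc7a8 held that rank in Trpm2-/- kidneys 1 and 2.

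Slc3a1 encodes the heavy chain of the brush border exchanger for cystine and dibasic amino acids, the complex that is defective in cystinuria. Its gene lies on the plus strand at chr17:85028347-85064243 in the positions of the table. Its values were 183, 199 and 202 CPM in WT kidneys and 107, 70.0 and 58.3 CPM in Trpm2-/- kidneys. The WT kidneys were close together and every Trpm2-/- kidney was well below them. Slc3a1 fell by 1.31 on the log2 scale (SE 0.21), a 2.47-fold lower level with an adjusted p of 0.00549. The gene's end overlaps exons of Prepl, a peptidase-like gene on the opposite strand, and 23.99% of its 75-base transcript windows also occur there. Whether the counting used strand was not stated, so reads from the 2 genes cannot be told apart in the overlap. Prepl had a log2 fold change of -0.04 with an adjusted p of 0.889.

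The 250 bases before the RefSeq start of Slc3a1 (GRCm38.p6, plus strand, chr17:85028097-85028346) overlap no GENCODE exon. They are shown because they hold the letters CAAAGTCCA, a form of the motif of the proximal tubule factor HNF4, and those of Slc6a19 are shown because that carrier had the smallest absolute log2 fold change. Capitals mark the motif, which begins 39 bases before the Slc3a1 start on the plus strand. The window of Slc6a19 (GRCm38.p6, minus strand, chr13:73692637-73692886) lies within the annotated gene, outside its exons. Both are written 5′ to 3′ on the strand of the gene.
Slc3a1: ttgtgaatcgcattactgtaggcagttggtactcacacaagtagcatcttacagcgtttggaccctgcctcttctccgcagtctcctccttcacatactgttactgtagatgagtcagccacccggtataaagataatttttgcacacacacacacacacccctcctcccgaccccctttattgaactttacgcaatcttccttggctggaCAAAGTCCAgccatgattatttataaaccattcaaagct
Slc6a19: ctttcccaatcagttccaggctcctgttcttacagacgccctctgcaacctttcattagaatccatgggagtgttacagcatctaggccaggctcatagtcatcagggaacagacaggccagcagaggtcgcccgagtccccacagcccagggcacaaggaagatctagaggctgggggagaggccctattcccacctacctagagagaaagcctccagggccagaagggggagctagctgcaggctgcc
Windows were found for 8 of the 10 carriers, and those of Slc6a18 and Slc7a13, the carrier with the largest absolute log2 fold change, were not analysed here. The letters CAAAGTCCA, read on both strands, were in 0.384% of 32851 RefSeq promoter windows and in no other window of these carriers. The letters GTTAAT, a half-site of the HNF1 motif that shares no position with the first, were in 6.43% of all windows and in 1 window of Slc7a7, 86 bases before its start. A match describes these letters only. The choice to print Slc3a1 was made after its values and its match were seen.

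Slc7a9 and Slc7a13 encode light chains that pair with the Slc3a1 protein. Slc7a9, the cystinuria partner (plus strand, chr7:35448796-35466036), was at 59.4, 85.5 and 72.0 CPM in WT kidneys and at 55.9, 42.7 and 47.9 CPM in Trpm2-/- kidneys. The groups did not overlap, but the highest Trpm2-/- kidney was close to the lowest WT kidney. Its log2 fold change of -0.57 (SE 0.17) did not pass the test, with an adjusted p of 0.0549. Without WT kidney 1 it did pass, at -0.70 and an adjusted p of 0.0399, and without WT kidney 2 it was -0.43 with an adjusted p of 0.223.

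Slc7a13, a carrier of aspartate, glutamate and cystine in the late proximal tubule (plus strand, chr4:19818725-19842218), had the largest SE of the called carriers. It was at 20.7, 19.0 and 38.3 CPM in WT kidneys and at 3.67, 5.60 and 13.4 CPM in Trpm2-/- kidneys. WT kidney 3 and Trpm2-/- kidney 4 were the highest of their groups, and the groups did not overlap. Slc7a13 fell by 1.78 on the log2 scale (SE 0.45), a 3.43-fold lower level with an adjusted p of 0.0323. The adjusted p was 0.055 without WT kidney 2, 0.13 without WT kidney 3, 0.083 without Trpm2-/- kidney 1 and 0.0753 without Trpm2-/- kidney 2, so the call did not hold without any of these 4 kidneys.

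Slc7a7 and Slc7a8 are basolateral exchangers that share the heavy chain Slc3a2. Slc7a7 (minus strand, chr14:54369442-54417780) carries cationic amino acids out of the cell in exchange for neutral ones, and its loss causes lysinuric protein intolerance. It was at 35.8, 55.8 and 43.1 CPM in WT kidneys and at 29.4, 22.6 and 26.0 CPM in Trpm2-/- kidneys, with no overlap. Slc7a7 fell by 0.79 on the log2 scale (SE 0.18), with an adjusted p of 0.0244. This call was lost without WT kidney 2 (adjusted p = 0.111), WT kidney 3 (0.0769), Trpm2-/- kidney 2 (0.0547) or Trpm2-/- kidney 4 (0.0513). Of its transcript windows, 4.46% also occur in Oxa1l on the opposite strand, which had a log2 fold change of -0.33 and an adjusted p of 0.128.

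Slc7a8 exchanges neutral amino acids and lies on the same strand of the same chromosome, at chr14:54722209-54781946, 304428 bases from Slc7a7. It was at 138, 156 and 109 CPM in WT kidneys and at 267, 183 and 124 CPM in Trpm2-/- kidneys. Trpm2-/- kidneys 1 and 2 were above all WT kidneys, while kidney 4 was within the WT range. Its log2 fold change was 0.51 (SE 0.26), the only value above 0 among the 10 carriers, and it did not pass the test (adjusted p = 0.224). The value was 0.19 without Trpm2-/- kidney 1 and 0.76 without Trpm2-/- kidney 4, with adjusted p values of 0.609 and 0.0513. The FPKM ratio of Slc7a8 to Slc7a7 was 2.54, 1.85 and 1.67 in WT kidneys and 6.02, 5.35 and 3.15 in Trpm2-/- kidneys, so every Trpm2-/- kidney had more Slc7a8 per Slc7a7 than any WT kidney. This ratio was set up after the values were seen and was not tested.

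**Figure D2:**
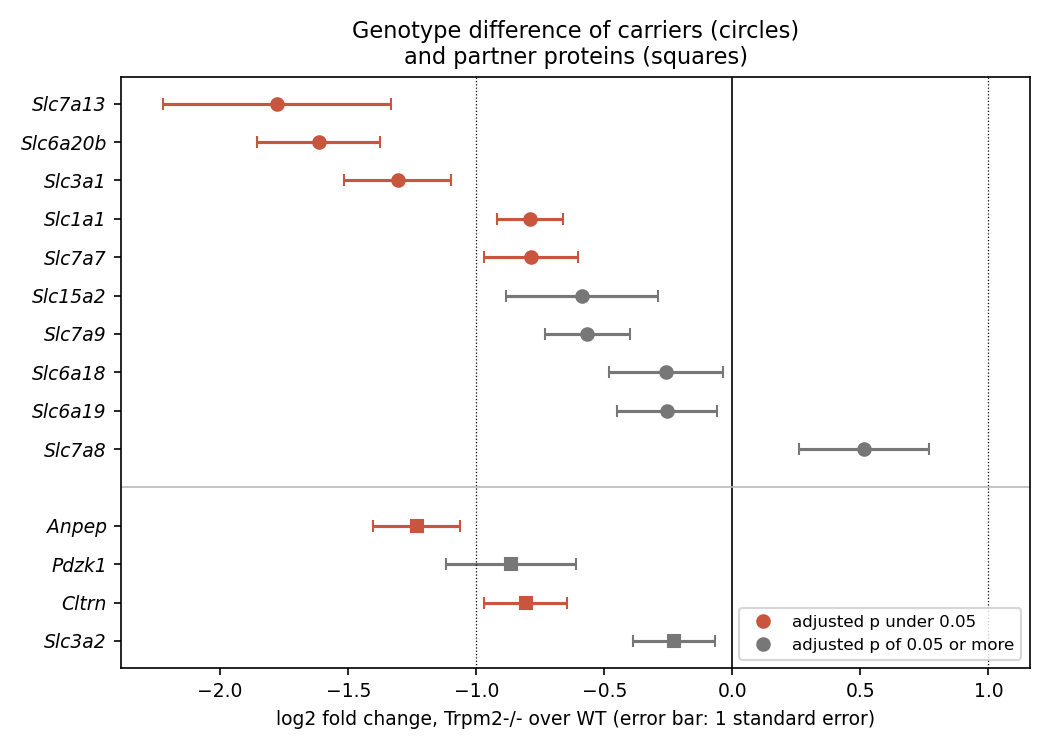
Log2 fold change of Trpm2-/- over WT (horizontal axis) for the 10 carriers (circles) and for 4 partner and scaffold genes (squares), with bars of 1 standard error and 3 kidneys per genotype. Red marks an adjusted p under 0.05 and dotted lines mark the limits of -1 and 1. Values run from -1.78 for Slc7a13 to 0.51 for Slc7a8.

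Slc6a18, Slc6a19 and Slc6a20b belong to the sodium-driven carriers of the brush border. Slc6a19, the main carrier of neutral amino acids and the gene of Hartnup disorder, lies 1721 bases from Slc6a18 on the minus strand of chromosome 13 (chr13:73679745-73704865 and chr13:73661752-73678023). Slc6a19 was at 117, 162 and 111 CPM in WT kidneys and at 136, 97.9 and 93.5 CPM in Trpm2-/- kidneys. The groups overlapped, with Trpm2-/- kidney 1 above 2 of the WT kidneys. Its log2 fold change was -0.25 (SE 0.19), with an adjusted p of 0.436. With 1 kidney left out it ran from -0.44 without Trpm2-/- kidney 1 to -0.064 without WT kidney 2, and was -0.14 without Trpm2-/- kidney 4, with no call.

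Slc6a18 was at 1771, 1616 and 1911 CPM in WT kidneys and at 1139, 2005 and 1284 CPM in Trpm2-/- kidneys. Trpm2-/- kidney 2 had the highest value of all 6 kidneys and the other two Trpm2-/- kidneys the lowest. The log2 fold change was -0.26 (SE 0.22, adjusted p = 0.488), and it was -0.55 without Trpm2-/- kidney 2, -0.10 without kidney 1 and -0.16 without kidney 4, none of which passed the test. The FPKM ratio of Slc6a18 to its neighbour Slc6a19 ran from 11.3 to 19.6 in WT kidneys and from 9.52 to 23.2 in Trpm2-/- kidneys, so the ranges overlapped.

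Slc6a20b (minus strand, chr9:123590800-123632565) is a member of the imino acid carrier family, whose mouse genome holds the close copy Slc6a20a beside it. It was at 62.6, 66.3 and 91.2 CPM in WT kidneys and at 22.2, 17 and 32.6 CPM in Trpm2-/- kidneys. Every WT kidney was well above every Trpm2-/- kidney. Slc6a20b fell by 1.62 on the log2 scale (SE 0.24), a 3.06-fold lower level with an adjusted p of 0.00415. Of its transcript windows, 25.3% also occur in Slc6a20a or in Sacm1l, a phosphatase gene on the opposite strand, so reads from these windows may stem from another gene. This is a share of windows and not of counts, and the share of counts affected was not measured. Sacm1l was at 18.4, 11.0 and 9.94 CPM in WT kidneys and at 36.2, 15.4 and 14.8 CPM in Trpm2-/- kidneys. Slc6a20a had a log2 fold change of -0.64 (adjusted p = 0.0816) and Sacm1l one of 0.75 (adjusted p = 0.216).

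Slc1a1 and Slc15a2 complete the list at the brush border. Slc1a1, the sodium-driven carrier of glutamate and aspartate (plus strand, chr19:28835049-28913960), was at 133, 143 and 159 CPM in WT kidneys and at 78.0, 88.8 and 84.9 CPM in Trpm2-/- kidneys. Both groups were narrow and far apart. Slc1a1 fell by 0.79 on the log2 scale (SE 0.13), a 1.73-fold lower level with an adjusted p of 0.00562. Exons of 4430402I18Rik on the opposite strand share 30.4% of its windows, and that gene had a log2 fold change of -0.91 (adjusted p = 0.0706) at 4.03 CPM in WT kidneys, a small part of the Slc1a1 level.

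Slc15a2 takes up dipeptides and tripeptides with protons in the late proximal tubule (minus strand, chr16:36750177-36784962). It was at 69.8, 63.9 and 52.0 CPM in WT kidneys and at 38.3, 23.1 and 62.0 CPM in Trpm2-/- kidneys. Trpm2-/- kidneys 1 and 2 were below all WT kidneys, while kidney 4 was within the WT range. Its log2 fold change of -0.59 (SE 0.30) did not pass the test (adjusted p = 0.229). Without kidney 4 it was -0.998, with an adjusted p of 0.0307, and without Trpm2-/- kidney 2 it was -0.30, with an adjusted p of 0.391. Kidney 4 was also the one with the highest summed CPM of 5 podocyte markers, 510 against 130 to 173 in the other kidneys. Its sums for endothelial markers (179) and for fibroblast and pericyte markers (123) were the highest too. Among Trpm2-/- kidneys it had the highest geometric mean of the proximal tubule markers, 136 CPM, although their summed CPM was higher in kidney 1 (3854 against 3699). The part of these differences in the Slc15a2 value was not tested.

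Of 4 partner and scaffold genes, 2 were lower at an adjusted p under 0.05 and 0 were higher in edgeR. With all kidneys, DESeq2 called 3 lower and limma 2, and edgeR called 1 without WT kidney 2 and 1 without WT kidney 3. Cltrn, or collectrin, which brings Slc6a18 and Slc6a19 to the kidney brush border, was at 328, 425 and 458 CPM in WT kidneys and at 243, 207 and 242 CPM in Trpm2-/- kidneys. It fell by 0.81 on the log2 scale (SE 0.16, adjusted p = 0.0134), and the call was lost without WT kidney 2 (adjusted p = 0.0661) or WT kidney 3 (0.0748). Anpep, a brush border aminopeptidase that associates with Slc6a19, was at 211, 199 and 178 CPM in WT kidneys and at 85.2, 65.4 and 99.7 CPM in Trpm2-/- kidneys, and fell by 1.23 (SE 0.17, adjusted p = 0.00332).

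Pdzk1, a scaffold that anchors brush border carriers, had a log2 fold change of -0.87 (SE 0.25, adjusted p = 0.0551), which was -1.16 without Trpm2-/- kidney 1 (adjusted p = 0.0264) and -0.59 without Trpm2-/- kidney 4 (adjusted p = 0.0595). It shares 31.1% of its windows with genes on the opposite strand. Slc3a2, the heavy chain of Slc7a7 and Slc7a8 that most cell types make, had overlapping groups and a log2 fold change of -0.23 (SE 0.16, adjusted p = 0.387).

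To set each carrier against the partner it works with, the FPKM ratio of the pair was compared between genotypes in 6 pairs with the two-sided exact permutation test, whose smallest p with 3 against 3 kidneys is 0.1. Slc7a9 per Slc3a1 was 0.280, 0.371 and 0.308 in WT kidneys and 0.449, 0.526 and 0.708 in Trpm2-/- kidneys, a log2 difference of 0.79 (exact p = 0.1, adjusted p = 0.15). The RNA of Slc7a9 was thus higher relative to that of Slc3a1 in every Trpm2-/- kidney. Both genes had a log2 fold change below 0, -0.57 for Slc7a9 and -1.31 for Slc3a1. Slc7a13 per Slc3a1 overlapped, with a log2 difference of -0.57 (exact p = 0.6) that turned to 0.0932 without Trpm2-/- kidney 1, and was -0.28 without WT kidney 3 and -1.28 without Trpm2-/- kidney 4.

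The differences of the basolateral pairs had opposite signs. Slc7a7 per Slc3a2 was 0.130, 0.157 and 0.133 in WT kidneys and 0.0931, 0.0882 and 0.107 in Trpm2-/- kidneys, a log2 difference of -0.54 (exact p = 0.1, adjusted p = 0.15). Slc7a8 per Slc3a2 was 0.331, 0.290 and 0.222 in WT kidneys and 0.560, 0.472 and 0.337 in Trpm2-/- kidneys, a log2 difference of 0.69 with the same p values. Neither pair overlapped between genotypes.

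Slc6a19 per Cltrn was 0.110, 0.118 and 0.0745 in WT kidneys and 0.172, 0.146 and 0.119 in Trpm2-/- kidneys, a log2 difference of 0.54 (exact p = 0.1, adjusted p = 0.15), or 0.34 without WT kidney 3. Slc6a18 per Cltrn overlapped, with a log2 difference of 0.50 (exact p = 0.3, adjusted p = 0.36), or 0.176 without Trpm2-/- kidney 2. No pair passed 0.05, which this design cannot reach, and 4 of the 6 pairs were at the smallest p it allows. That p means only that the genotypes did not overlap. Of the 15816 single genes tested, 2663 lay wholly below and 2641 wholly above the WT kidneys in CPM. The share of other gene pairs whose ratios do not overlap was not computed.

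**Figure D3:**
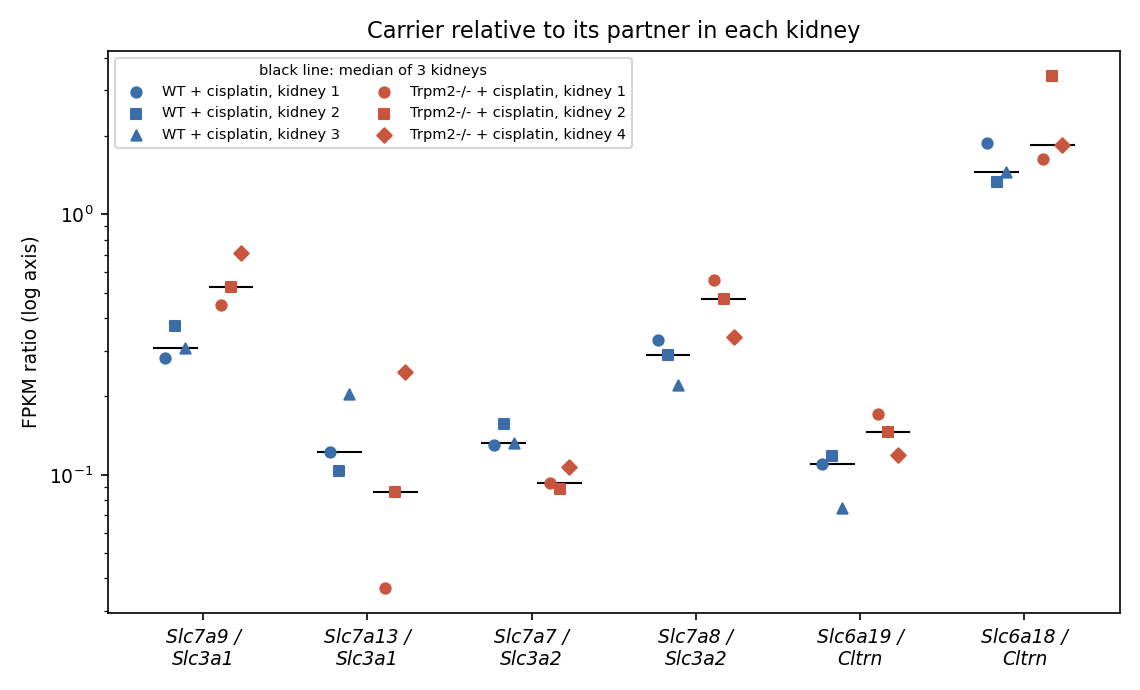
FPKM ratio of each carrier to its partner gene (log axis) in the 3 WT kidneys (blue) and the 3 Trpm2-/- kidneys (red), with 1 point per kidney and a black line at the median. The Trpm2-/- points lie above all WT points for Slc7a9 to Slc3a1, Slc7a8 to Slc3a2 and Slc6a19 to Cltrn, lie below them for Slc7a7 to Slc3a2, and overlap them in the other 2 pairs.

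Markers of the proximal tubule had a lower median log2 fold change than the 10 carriers. Of 14 such markers (among them Fbp1 and Pck1, enzymes of gluconeogenesis, and Ass1 of arginine synthesis), 13 were lower and 0 were higher, with a median log2 fold change of -1.45, and 8 were lower without WT kidney 3. Their summed CPM was 9885 to 11120 in WT kidneys and 2599 to 3854 in Trpm2-/- kidneys. Fbp1 fell by 1.98, Pck1 by 1.73 and Ass1 by 1.21 on the log2 scale, with adjusted p values of 0.00126, 0.00221 and 0.00385. The part of this difference in the carrier values was not tested as a cause, but each carrier could be set against the markers within each kidney.

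On this scale, the log2 CPM of a carrier minus the mean log2 CPM of the 14 markers, 7 of the 10 carriers were higher in all Trpm2-/- kidneys than in all WT kidneys, 3 overlapped and 0 were lower. All 14 markers had a log2 fold change below 0, with a median of -1.45. A gene with an unchanged CPM therefore also comes out higher on this scale. The median over all genes tested was 0.02, and the share of them that lie higher on this scale was not computed. The count of 7 can therefore not be read as particular to the carriers. This comparison was added after the data were seen and used the two-sided exact permutation test, whose smallest p is 0.1. Slc7a8 had the largest difference, 2.05, from -1.06, -1.07 and -1.72 in WT kidneys to 1.28, 1.16 and -0.13 in Trpm2-/- kidneys. Slc6a19 and Slc6a18 followed with 1.34 and 1.29, then Slc7a9 with 1.03, Slc15a2 with 0.90, Slc7a7 with 0.82 and Slc1a1 with 0.81. Without Trpm2-/- kidney 2 the Slc6a18 difference was 0.86, below that of Slc7a9 at 0.93. Each of these 7 had an exact p of 0.1 and an adjusted p of 0.143 over the 10 carriers.

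Slc7a7 and Slc1a1 were lower in Trpm2-/- kidneys in CPM and higher relative to the markers, which means only that they fell by less than the markers. The relative values restate the CPM differences against a reference that was itself lower, and are not a second result. Slc6a20b had a difference of -0.05 and an exact p of 0.6, from -2.19, -2.30 and -1.98 in WT kidneys to -2.30, -2.27 and -2.06 in Trpm2-/- kidneys. Its sign turned with the summed CPM of the markers as the scale (0.0332) and without WT kidney 3 (0.0365). Slc3a1 had a difference of 0.24 (exact p = 0.5), which was 0.01 without Trpm2-/- kidney 1, 0.11 without kidney 2 and 0.60 without kidney 4. Slc7a13 had one of -0.33 (exact p = 0.6), which turned to 0.103 without Trpm2-/- kidney 1 and was -0.09 without WT kidney 3 and -0.68 without Trpm2-/- kidney 4.

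Trpm2-/- kidney 2 had the lowest marker level of all 6 kidneys, a geometric mean of 81.8 CPM against 110 and 136 CPM in the other Trpm2-/- kidneys and 286 to 359 CPM in WT kidneys. The same kidney had the highest Slc6a18, so that Slc6a18 stood 4.62 above the markers there on the log2 scale, against 3.24 to 3.38 in the other Trpm2-/- kidneys and 2.31 to 2.63 in WT kidneys.

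**Figure D4:**
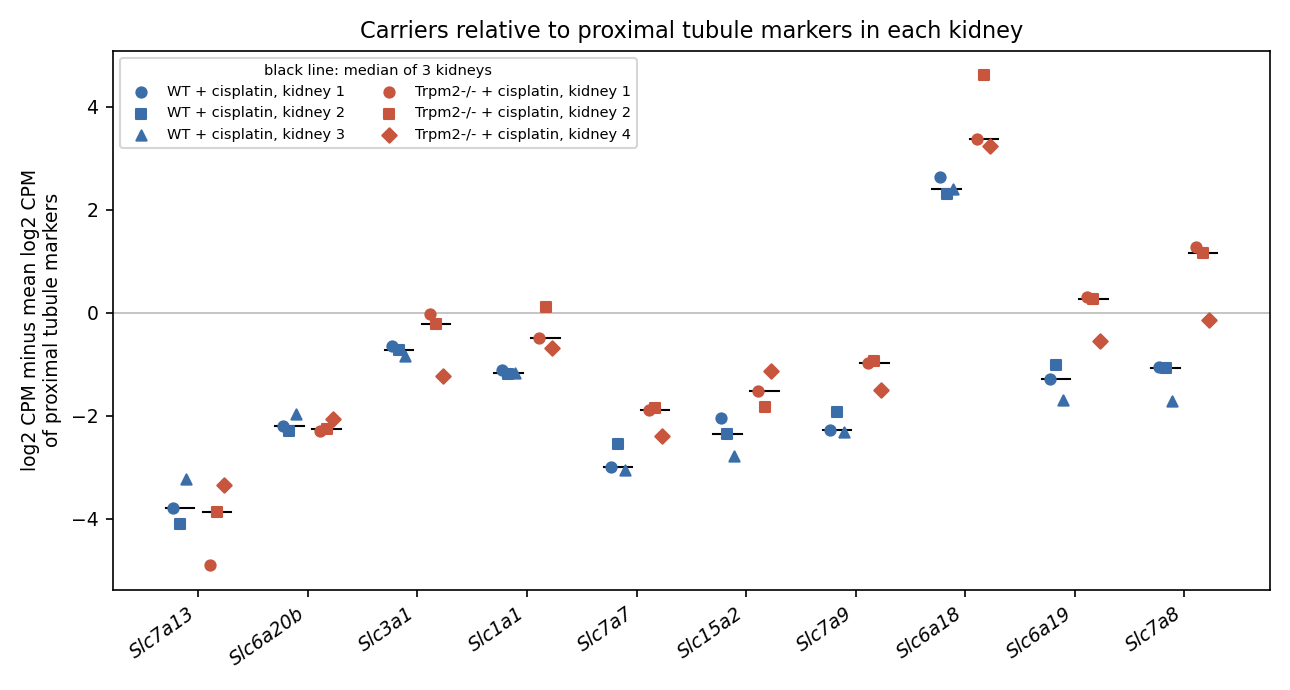
Log2 CPM of each carrier minus the mean log2 CPM of 14 proximal tubule markers (vertical axis) in the 3 WT kidneys (blue) and the 3 Trpm2-/- kidneys (red), with 1 point per kidney and a black line at the median. The red points lie above all blue points for 7 carriers and overlap them for Slc7a13, Slc6a20b and Slc3a1.

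Other amino acid and peptide carriers were described beside the 10. Of 47 listed, 35 were tested, 3 were lower and 1 was higher at an adjusted p under 0.05, with a median log2 fold change of 0.01. The higher count was 3 without Trpm2-/- kidney 4 and 2 without Trpm2-/- kidney 2, and the lower count did not go below 2 without any kidney. Slc38a3, a basolateral glutamine carrier, was at 416, 441 and 381 CPM in WT kidneys and at 112, 145 and 173 CPM in Trpm2-/- kidneys, and fell by 1.53 (SE 0.18, adjusted p = 0.00165). Slc6a13, a carrier of taurine and GABA, fell by 1.29 (SE 0.20, adjusted p = 0.00482). Slc36a1, a carrier of the lysosome named here after its value was seen, fell by 0.43 (adjusted p = 0.0491). Slc38a2, a sodium-driven carrier induced when amino acids are short, was at 86.5, 81.2 and 91.3 CPM in WT kidneys and at 181, 149 and 141 CPM in Trpm2-/- kidneys, and rose by 0.86 (SE 0.14, adjusted p = 0.00546). Slc7a14, Slc15a5 and Slc38a5 had 0 counts in all kidneys.

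Peptidases of the brush border and the cell release amino acids and small peptides that the carriers take up or pass on. Of 13 tested, 9 were lower and 0 were higher, with a median log2 fold change of -1.23, and from 6 to 9 were lower with 1 kidney left out. Mep1a, a subunit of meprin, was at 842, 985 and 1326 CPM in WT kidneys and at 286, 374 and 300 CPM in Trpm2-/- kidneys, and fell by 1.71 (SE 0.20, adjusted p = 0.00184). Ace, which cleaves dipeptides from angiotensin and other peptides, fell by 1.25 (SE 0.13, adjusted p = 0.00131). Pepd, which splits dipeptides that end in proline, fell by 0.99 (SE 0.13, adjusted p = 0.00298). Anpep is in this list and in that of the partners.

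Of 8 transcription factors of the proximal tubule, 0 passed the test in either direction with edgeR, and the median log2 fold change was 0.05. At an unadjusted p under 0.05, 1 was lower and 3 were higher, and with DESeq2 and limma 0 passed in either direction, while edgeR without Trpm2-/- kidney 4 called 1 higher. Hnf4a, a nuclear receptor of proximal tubule identity, was at 385, 432 and 429 CPM in WT kidneys and at 371, 303 and 214 CPM in Trpm2-/- kidneys. These groups did not overlap, and the log2 fold change of -0.49 (SE 0.20) had an unadjusted p of 0.0321 and an adjusted p of 0.135 in edgeR. Hnf4g had a log2 fold change of 0.79 (adjusted p = 0.109) at 3.03 CPM in WT kidneys, and Ppara, a regulator of fatty acid oxidation, one of 0.98 (adjusted p = 0.146).

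Of 12 genes of the response to amino acid shortage and of amino acid synthesis, 1 was lower and 0 were higher in edgeR, with 1 higher without Trpm2-/- kidney 4. The lower gene was Cth, the enzyme that makes cysteine from cystathionine, at 197, 213 and 256 CPM in WT kidneys and at 61.6, 66.0 and 70.7 CPM in Trpm2-/- kidneys. Cth fell by 1.75 (SE 0.14, adjusted p = 0.00126). Eif2ak4, the kinase that senses uncharged tRNA, had a log2 fold change of 0.49 (adjusted p = 0.0755), and Sesn2, a leucine sensor of the mTOR pathway, one of 0.30 (adjusted p = 0.133).

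The kidneys had 14053307 to 17150089 counts on genes, and genes of the mitochondrial genome took 4.43% to 4.72% of them in WT kidneys and 7.91% to 11.0% in Trpm2-/- kidneys. Without these genes, the same 5 carriers were called. Of 9 markers of injured tubules, Timp1, Sox9 and Krt20 were higher and 0 were lower in edgeR. The summed CPM of the 9 was 17661 to 19762 in WT kidneys and 19959 to 28003 in Trpm2-/- kidneys. Spp1, named here after its value was seen, held the largest part of this sum, with means of 12595 and 14729 CPM. It did not pass the test of edgeR (adjusted p = 0.561). Lower markers were also found for the thick ascending limb (2 of 4 tested, 706 to 2153 against 182 to 774 CPM), principal cells (2 of 4, 1184 to 1509 against 643 to 790 CPM) and the urothelium (1 of 2, Upk3a, with sums of 5.20 to 38.4 against 5.54 to 7.37 CPM and the highest in WT kidney 1). In edgeR, 0 markers passed for podocytes (5 tested), the distal convoluted tubule (3), intercalated cells (5), endothelium (5), fibroblasts and pericytes (5) and leukocytes (5). At an unadjusted p under 0.05, 3 podocyte markers, 1 of the distal convoluted tubule and 1 of leukocytes were higher and 1 of intercalated cells was lower, and DESeq2 called 1 higher for podocytes and 1 lower for intercalated cells, whereas limma called 0 in these lists. Counts of 0 became 2 lower endothelial and 1 lower fibroblast marker without Trpm2-/- kidney 4, and 2 higher podocyte markers and 1 higher marker of the distal convoluted tubule without Trpm2-/- kidney 2. The 3 injury markers became 1 without WT kidney 3, and the counts of the thick ascending limb, principal cells and urothelium ranged from 1 to 3, from 1 to 2 and from 0 to 3 with 1 kidney left out. Erythroid genes were too low to test, with Hbb-bt at 0. The part of these differences in the carrier values was not tested.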

How the data were processed

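Total RNA of 6 mouse kidneys was sequenced. The authors deposited gene counts, whole numbers of reads per gene without normalization, and FPKM values, which divide them by gene length and library total. The submitters' processing notes name HISAT2, StringTie and mm9, with versions and strandedness not given in the sources used here. However, 53499 of 54409 genes shared with GENCODE release 21 (98.33%) have the same start and end there, which is on GRCm38, so positions are printed on GRCm38.

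The members and all lists were chosen with earlier results of these data known. Counts were tested in R 4.3.3 with edgeR 4.0.16 (default filterByExpr, TMM, two-sided quasi-likelihood test, genotype only, Benjamini-Hochberg over all 15816 genes). The SE is the absolute log2 fold change over the square root of F. CPM uses TMM-scaled totals. Kidneys of a genotype differed beyond counting noise. The chi-square per degree of freedom was 14.7 to 20.5 between WT kidneys and higher, 35.7 to 40.8, between Trpm2-/- kidneys. In simulated data with the same design, 196 of 199 genes changed 4-fold were recovered, with 10 other genes called. The simulation gave every gene the same dispersion. The largest change of a carrier was 3.43-fold, so this does not measure how often changes of the size seen in the carriers are recovered. Named genes are the 10 members, all partners and up to 3 genes with the smallest p of each other list, except 1 listed gene that is not reported here. Alternatives used DESeq2 1.42.0 and limma 3.58.1, other scalings, no filter and fewer kidneys. Exact permutation tests used scipy 1.17.1.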

Additional observations from a re-analysis of the deposited data

How the results depend on the processing

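Depth allowed a test of all 10 carriers. Slc6a20b, Slc3a1 and Slc1a1 were called lower in each of 14 alternatives, and no carrier changed sign in any of them. The count of 5 lower carriers was 3 without WT kidney 2, WT kidney 3 or Trpm2-/- kidney 2, and those 3 were again Slc6a20b, Slc3a1 and Slc1a1. It ran from 3 to 6 over all kidneys left out. Over all genes, 1152 lower and 750 higher calls became 470 and 160 without WT kidney 3, 521 and 176 without WT kidney 2, 1692 and 1262 without the filter on low counts, and 954 and 444 with limma on log2(FPKM + 1). Without the filter, Slc7a8 (adjusted p = 0.0294), Slc7a9 (0.00680), Slc15a2 (0.00441) and Pdzk1 (5.98e-06) also passed, and with DESeq2 Slc7a9 (0.0277) and Pdzk1 (0.00549). The causes were not tested. The kidneys share only numbers, with correlations of deviations of 0.06 and -0.01 for numbers 1 and 2. With these numbers as a replicate block (4 kidneys), calls were 602 and 313, Slc7a7 did not pass (-0.79, adjusted p = 0.113), nor did Cltrn (0.0886), and Slc15a2 did (-1.16, 0.0143). Differences that turned sign were those of Slc7a13 per Slc3a1 without Trpm2-/- kidney 1 (0.0932), Slc6a20b relative to the markers by summed CPM (0.0332) or without WT kidney 3 (0.0365), and Slc7a13 relative to the markers without Trpm2-/- kidney 1 (0.103). With 1 kidney left out at a time, these 3 values ran from -1.28 to 0.0932, from -0.128 to 0.0365 and from -0.678 to 0.103.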
